A study of Arabidopsis thaliana with 9 samples.

Results

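Catalases, superoxide dismutases and ascorbate peroxidase are among the enzymes that remove superoxide and hydrogen peroxide from plant cells. They were followed here through 7 probe sets of an Affymetrix array, out of 22746 probe sets tested. The 7 were chosen by a list of probe set IDs and not by a cutoff on measured values: 3 catalases, 1 iron superoxide dismutase (FSD1), 2 copper/zinc superoxide dismutases (CSD1 and CSD2) and 1 cytosolic ascorbate peroxidase (APX1). The choice was made with earlier results of these data known. All 7 IDs were found in the deposited table, and no filter on low values was applied.

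The RNA came from Columbia-0 seedlings of Arabidopsis thaliana, taken whole at the age of 8 days, with 3 arrays in each of 3 groups. The first group was kept for 5 days, from day 3, beside an open dish of 100 uM sodium nitroprusside (SNP), a compound that releases nitric oxide (NO). The second had 1 mM cPTIO, a nitroxide that scavenges NO, added to its own dishes over the same days. The third was untreated, with no agent named in the labels. Both treatments used sealed outer dishes, but for the untreated seedlings sealing is not recorded in the labels. Route, dose and sealing therefore cannot be told apart from the agent. The labels call the arrays biological replicates but do not say whether the 3 came from separate exposures, so the p-values cover only how far these arrays differed, which may be technical.

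The gene names need a caution. They come from the definition of the set and not from the annotation table of the array used here, which lists none of the 7 IDs. The definition gives 259544_at as CAT1 (AT1G20630) and 259517_at as CAT3 (AT1G20620). These genes are immediate neighbours in the TAIR10.1 annotation, and no table used here settles which probe set measures which. The assignment may be the other way round. Both are therefore called by ID below, as catalase probe sets.

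Superoxide dismutases turn superoxide into hydrogen peroxide and oxygen. Catalases, in peroxisomes, split hydrogen peroxide into water and oxygen without using up a reductant, and ascorbate peroxidases reduce it with ascorbate. NO is tied to the same chemistry: it reacts with superoxide to form peroxynitrite, and it binds the haem iron on which catalases and ascorbate peroxidases depend. FSD1 and the copper/zinc enzymes are also known as a pair of alternatives, since plants short of copper make more FSD1 while the microRNA miR398 lowers CSD1 and CSD2 transcripts.

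The main change in these enzymes was a rise of the catalase probe set 259544_at under both agents. CAT2, CSD1, CSD2 and APX1 did not pass the test in any comparison. 259544_at was 3.63-fold higher in SNP seedlings and 3.35-fold higher in cPTIO seedlings than in untreated ones. 259517_at, another catalase probe set, was 1.64-fold and 1.33-fold higher in the same comparisons. Its cPTIO call was near the threshold and held in only 4 of 18 other settings of the analysis. FSD1 passed in cPTIO seedlings, at 1.64-fold above untreated, a call that held in 10 of those 18 settings. Values are log2 expression as deposited by the authors, and the test was limma's moderated test over all 22746 probe sets with Benjamini-Hochberg adjustment, an adjusted p under 0.05 counting as a call. Against untreated, 2 of 7 members were called higher in SNP, beside 6.19% of all probe sets called in either direction, and 3 of 7 were called higher in cPTIO, beside 6.59%. No member was called lower. As the members were chosen with earlier results known, these counts describe the set and do not test it against all probe sets. The comparisons with untreated share the same 3 untreated arrays, so they are not independent of each other. In bulk tissue, fewer cells of a type and less RNA per cell cannot be told apart.

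**Figure D1:**
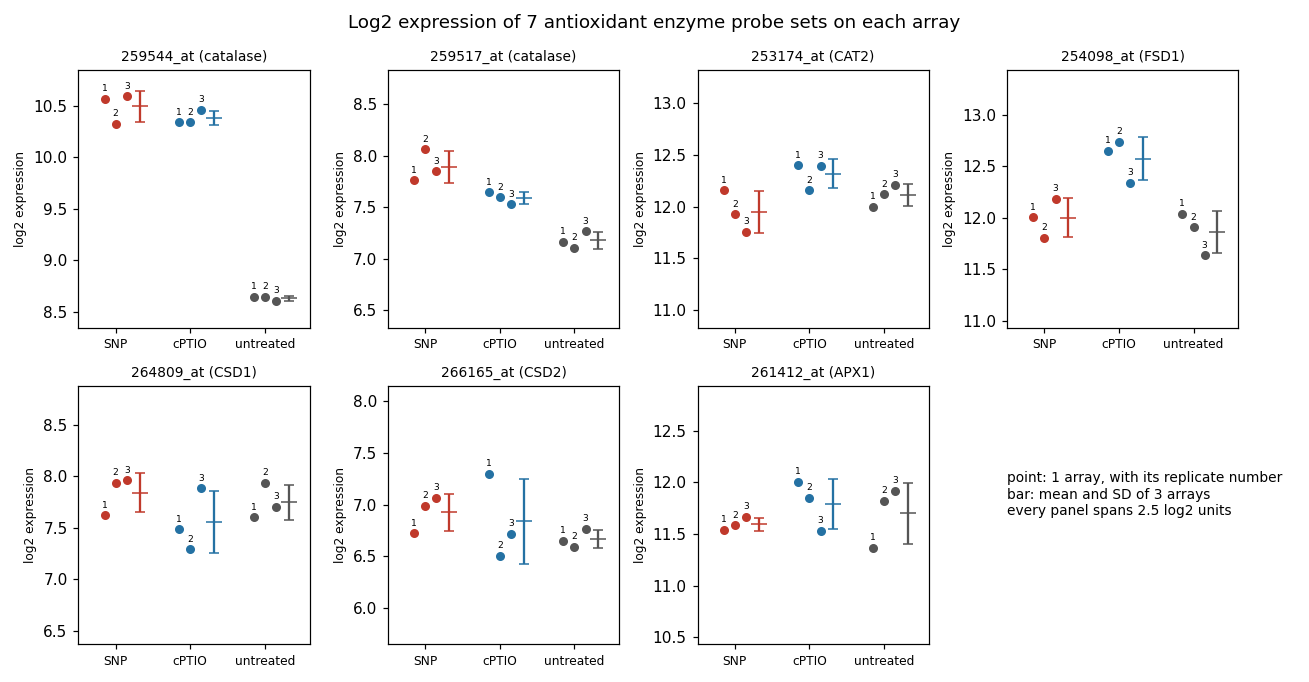
Log2 expression (vertical axis, the same span in every panel) of the 7 probe sets in SNP, cPTIO and untreated seedlings; each point is 1 array with its replicate number, and the bar beside it is the mean with the SD of 3 arrays. For 259544_at all 6 treated arrays lie between 10.32 and 10.59 and the 3 untreated arrays between 8.61 and 8.65, while the groups of CSD1, CSD2 and APX1 overlap.

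Among the catalases, 259544_at read 10.57, 10.32 and 10.59 on the SNP arrays, 10.34, 10.34 and 10.46 on the cPTIO arrays, and 8.65, 8.65 and 8.61 on the untreated arrays. Every treated array lay above every untreated array, by at least 1.68 on the log2 scale. The means were 10.49 ± 0.15 in SNP, 10.38 ± 0.07 in cPTIO and 8.63 ± 0.02 in untreated seedlings (SD, n = 3 each). The log2 difference from untreated was 1.86 ± 0.09 (SE) in SNP (limma adjusted p = 0.000443) and 1.75 ± 0.09 (SE) in cPTIO (limma adjusted p = 0.000812). In each of these comparisons it had the lowest p of all 22746 probe sets. It was not the largest rise: by size it stood 59th among rises in SNP and 48th in cPTIO. Its pooled within-group SD was 0.096, against a median of 0.172 over all probe sets, and the untreated arrays, which enter both comparisons, had the smallest spread of its 3 groups.

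The agents themselves were not shown to differ for this catalase. The log2 difference of SNP from cPTIO was 0.12, with a 95% interval from -0.09 to 0.33 (limma adjusted p = 0.569), and their arrays overlapped. That interval does not show equal levels, but it is narrow beside the difference of either group from untreated.

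The other catalase of uncertain assignment, 259517_at, read 7.76, 8.06 and 7.85 in SNP, 7.64, 7.60 and 7.53 in cPTIO, and 7.17, 7.11 and 7.27 in untreated seedlings. The 3 groups did not overlap, with SNP highest and untreated lowest. The log2 difference from untreated was 0.71 ± 0.10 (SE) in SNP (limma adjusted p = 0.00643) and 0.41 ± 0.10 (SE) in cPTIO (limma adjusted p = 0.0457). The SNP minus cPTIO difference, 0.30 with a 95% interval from 0.08 to 0.53, missed the threshold (limma adjusted p = 0.149).

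The cPTIO call of 259517_at was close to the threshold. It was lost when any 1 of 7 of the 9 arrays was left out (all except SNP replicate 2 and cPTIO replicate 3), with limma adjusted p-values from 0.0605 to 0.160. It was also lost with the replicate number as a block over all 9 arrays (limma adjusted p = 0.0726).

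CAT2 (253174_at), the catalase known for removing the hydrogen peroxide that photorespiration makes in leaf peroxisomes, moved differently. It read 12.16, 11.92 and 11.75 in SNP, 12.40, 12.16 and 12.39 in cPTIO, and 12.00, 12.12 and 12.21 in untreated seedlings. Both treated groups overlapped the untreated one. The log2 difference from untreated was -0.17 in SNP, with a 95% interval from -0.45 to 0.12 (limma adjusted p = 0.524), and 0.21 in cPTIO, with an interval from -0.08 to 0.49 (limma adjusted p = 0.359). SNP lay 0.37 below cPTIO, with an interval from -0.66 to -0.09 for the difference, which missed the threshold after adjustment (limma adjusted p = 0.159). A rise of the size seen for 259544_at lies outside both intervals of CAT2 against untreated.

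**Figure D2:**
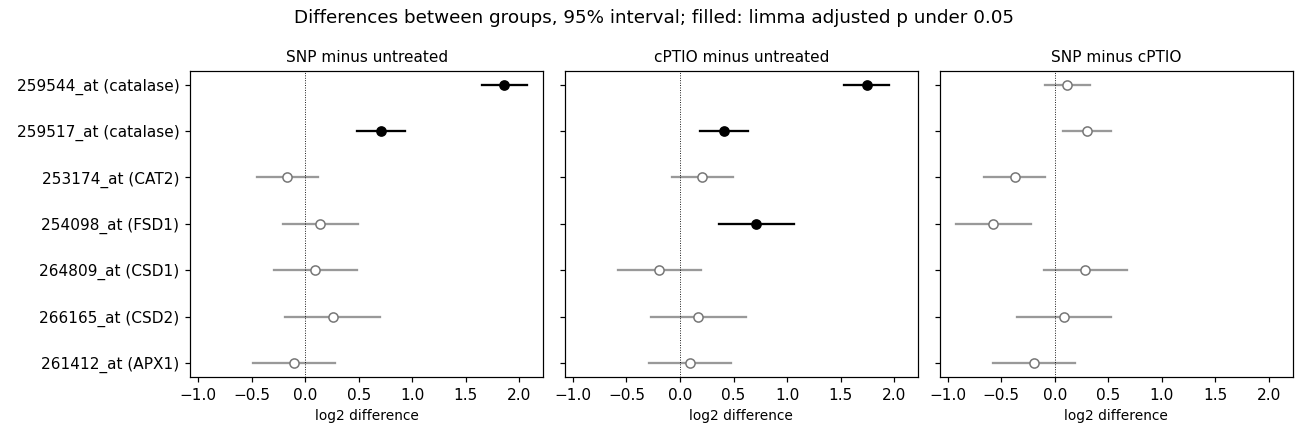
Log2 difference between groups (horizontal axis) for the 7 probe sets in the 3 comparisons; points are limma estimates, bars their 95% intervals, and filled points have a limma adjusted p under 0.05. The filled points are 259544_at and 259517_at for SNP minus untreated, and these with FSD1 for cPTIO minus untreated.

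Among the superoxide dismutases, FSD1 (254098_at), the iron enzyme, read 12.01, 11.81 and 12.19 in SNP, 12.65, 12.74 and 12.34 in cPTIO, and 12.04, 11.91 and 11.64 in untreated seedlings. All cPTIO arrays lay above all arrays of the other groups, and SNP overlapped untreated. The log2 difference of cPTIO from untreated was 0.71 ± 0.15 (SE; limma adjusted p = 0.0343). For SNP it was 0.14, with a 95% interval from -0.21 to 0.49 (limma adjusted p = 0.689).

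The direct comparison of the agents did not pass for FSD1 with all arrays: SNP was 0.58 below cPTIO on the log2 scale (SE 0.15, limma adjusted p = 0.0892). cPTIO replicate 3 stood apart from its group over all probe sets: the SD of its differences from the other 2 cPTIO arrays was 0.513 and 0.579, against 0.228 to 0.357 for the other pairs of arrays within a group. It was also the lowest of the cPTIO arrays for FSD1. Without it, the difference between SNP and cPTIO was -0.69 (limma adjusted p = 0.0388) and that between cPTIO and untreated 0.83 (limma adjusted p = 0.0177). Calls over all probe sets also rose without that array, from 742 to 1313 for SNP against cPTIO and from 1498 to 2114 for cPTIO against untreated. The call of cPTIO against untreated was lost without SNP replicate 1, cPTIO replicate 1, cPTIO replicate 2, untreated replicate 2 or untreated replicate 3, with limma adjusted p-values from 0.0610 to 0.110.

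CSD1 (264809_at), the cytosolic copper/zinc enzyme, read 7.62, 7.94 and 7.96 in SNP, 7.48, 7.29 and 7.88 in cPTIO, and 7.60, 7.93 and 7.70 in untreated seedlings. The groups overlapped throughout. The log2 difference from untreated was 0.09 in SNP, with a 95% interval from -0.30 to 0.48 (limma adjusted p = 0.833), and -0.19 in cPTIO, with an interval from -0.58 to 0.20 (limma adjusted p = 0.537). Both intervals include 0.

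CSD2 (266165_at), the chloroplast copper/zinc enzyme, read 6.72, 6.99 and 7.07 in SNP, 7.30, 6.50 and 6.72 in cPTIO, and 6.65, 6.59 and 6.77 in untreated seedlings. The cPTIO arrays had the widest spread of any member in any group (SD 0.41, n = 3), because replicate 1 lay above all other arrays and replicate 2 below them. The log2 difference from untreated was 0.26 in SNP, with a 95% interval from -0.19 to 0.70 (limma adjusted p = 0.526), and 0.17 in cPTIO, with an interval from -0.27 to 0.61 (limma adjusted p = 0.645). SNP minus cPTIO was 0.09 (limma adjusted p = 0.871).

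The copper chaperone CCS, which loads copper into both CSD enzymes and is likewise a target of miR398, read 5.64, 6.03 and 6.05 in SNP, 5.79, 5.43 and 5.89 in cPTIO, and 5.59, 5.70 and 5.60 in untreated seedlings. As for CSD1 and CSD2, SNP replicates 2 and 3 were above SNP replicate 1, and no comparison was called (limma adjusted p from 0.345 to 0.825). None of CSD1, CSD2 and CCS was called in cPTIO, where FSD1 was higher. The cPTIO intervals of CSD1 and CSD2 include falls as well as rises, and a shared cause was not tested. CSD1 was lower on the cPTIO arrays by 0.19 and CSD2 higher by 0.17, both within the spread of the arrays.

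APX1 (261412_at), the cytosolic peroxidase that reduces hydrogen peroxide with ascorbate, read 11.54, 11.59 and 11.67 in SNP, 12.01, 11.85 and 11.53 in cPTIO, and 11.37, 11.82 and 11.92 in untreated seedlings. The SNP arrays lay within the range of the untreated ones. The log2 difference from untreated was -0.11 in SNP, with a 95% interval from -0.49 to 0.28 (limma adjusted p = 0.799), and 0.09 in cPTIO, with an interval from -0.29 to 0.47 (limma adjusted p = 0.788).

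Set directly against cPTIO, SNP gave no call for any of the 7 by limma, beside 3.26% of all probe sets. At an unadjusted p under 0.05, 3 members differed: 259517_at was higher in SNP, and CAT2 and FSD1 were lower. The share of all probe sets at that unadjusted threshold was 18.2%. By limma's moderated F-test over the 3 groups together, 259544_at (adjusted p = 0.000698), 259517_at (adjusted p = 0.0108) and FSD1 (adjusted p = 0.0403) differed, beside 9.79% of all probe sets. The median log2 difference of the 7 from untreated was 0.14 in SNP and 0.21 in cPTIO, against medians of 0.00 and 0.02 over all probe sets. Without regard to sign, the median size of the difference over all probe sets was 0.15 in SNP and 0.17 in cPTIO. The medians of the 7 are the values of FSD1 in SNP and CAT2 in cPTIO, neither of them called. With 3 arrays a group, an exact permutation test of a single member cannot go below p = 0.1, which is reached whenever 2 groups do not overlap. 259544_at and 259517_at reached that value in both comparisons with untreated, and FSD1 in cPTIO against untreated. 259517_at and FSD1 also reached it in SNP against cPTIO. The share of all probe sets that reached it was not computed, so it does not set these members apart.

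Control transcripts on the arrays bear on every comparison with untreated. BioC, a bacterial spike-in added at hybridisation, lay between 8.46 and 8.64 on the SNP arrays, between 7.77 and 8.71 on the cPTIO arrays, and between 6.14 and 6.50 on the untreated arrays. It divided the arrays as 259544_at did, with a treated minus untreated difference of 2.12. For the spike-ins BioB, BioD and cre that difference was 0.35, 0.21 and 0.13, and none had all treated arrays above all untreated ones. The part of BioC in the result was not tested, and array processing and treatment cannot be told apart here. The mean of the poly-A spike-ins, which go through labelling with the plant RNA, ran from 4.00 to 4.76 in SNP, from 3.85 to 4.60 in cPTIO and from 3.71 to 3.90 in untreated samples. Array medians ran from 4.47 to 4.60, and only SNP replicate 3 and cPTIO replicate 3 exceeded the median of their array. The mean thus rests on dim signals. It was also mostly lower in untreated samples, so as a covariate it cannot be fully told apart from treatment. With that mean as a covariate, 259544_at kept both calls, with log2 differences of 1.81 in SNP (limma adjusted p = 0.0117) and 1.70 in cPTIO (limma adjusted p = 0.0162). The other 3 calls were lost while their log2 differences moved little. 259517_at differed by 0.71 in SNP (limma adjusted p = 0.0646) and 0.41 in cPTIO (limma adjusted p = 0.231), and FSD1 by 0.76 in cPTIO (limma adjusted p = 0.168).

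**Figure D3:**
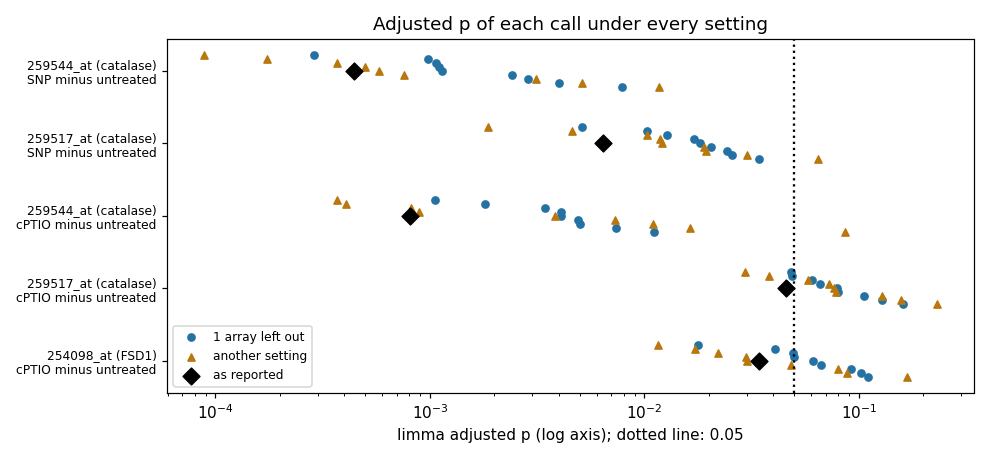
Limma adjusted p (horizontal log axis, dotted line at 0.05) for the 5 calls of members against untreated; diamonds are the values reported, circles fits with 1 of the 9 arrays left out, and triangles the other settings. The SNP call of 259544_at stays left of the line throughout, at 0.0117 or less, while the cPTIO calls of 259517_at and FSD1 lie on both sides of it.

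Other genes of peroxide and superoxide metabolism were taken from fixed lists of 77 genes, of which 18 could be named on the array through its annotation. In SNP, 1 of the 18 was called higher than untreated and none lower (all probe sets, 6.19%), and in cPTIO 3 were called higher and 2 lower (all probe sets, 6.59%). Of the 18, 2 were called higher in SNP than in cPTIO and none lower (all probe sets, 3.26%). Both of these calls, of VTC4 and ARPN, were lost when SNP and cPTIO were fitted alone with a replicate block. The median log2 difference of the 18 from untreated was 0.01 in SNP and 0.06 in cPTIO, close to that of all probe sets. The gene called under both agents was PRXIIE, a chloroplast peroxiredoxin that reduces peroxides through a thiol. It read 10.63, 10.46 and 10.60 in SNP, 10.80, 10.50 and 10.44 in cPTIO, and 9.86, 9.74 and 9.89 in untreated seedlings. Its groups divided as those of 259544_at did, with differences of 0.73 in SNP (1.66-fold, limma adjusted p = 0.00895) and 0.75 in cPTIO (1.68-fold, limma adjusted p = 0.0123). The cPTIO call was lost without untreated replicate 2 (limma adjusted p = 0.0619). With the poly-A covariate, every call against untreated among the named list and marker genes was lost: PRXIIE differed by 0.72 in SNP (limma adjusted p = 0.0785) and 0.74 in cPTIO (limma adjusted p = 0.107), and the limma adjusted p was 0.231 for VTC4, 0.191 for HPR1, 0.191 for GLYK and 0.142 for ARPN in cPTIO and 0.160 for EXPA7 in SNP. The chloroplast 2CPA and mitochondrial PRXIIF were not called in any comparison, with log2 differences from -0.27 to 0.14.

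The chloroplast ascorbate peroxidases SAPX and TAPX were not called in any comparison, and how closely they followed the members was not computed. SAPX, the stromal form, differed from untreated by 0.15 in SNP (limma adjusted p = 0.765) and 0.52 in cPTIO (limma adjusted p = 0.185). TAPX, the thylakoid form, differed by 0.03 (limma adjusted p = 0.947) and 0.42 (limma adjusted p = 0.101). Glutathione reductases and monodehydroascorbate reductase, which renew glutathione and ascorbate respectively, gave no call among the 3 measured of 12 listed. The largest differences there were 0.47 for the organellar GR2 in cPTIO (limma adjusted p = 0.0807) and -0.29 for the cytosolic GR1 in cPTIO (limma adjusted p = 0.302).

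In ascorbate synthesis 3 of 6 listed genes were measured, and 1 passed. VTC4, a phosphatase that acts on L-galactose 1-phosphate and on inositol phosphate, read 8.44, 8.47 and 8.59 in SNP, 7.28, 8.01 and 7.17 in cPTIO, and 8.59, 8.53 and 8.26 in untreated seedlings. It was lower in cPTIO than in untreated seedlings by a log2 difference of -0.98 (limma adjusted p = 0.0338), and higher in SNP than in cPTIO by 1.02 (limma adjusted p = 0.0397). The first call ended on leaving out any 1 of 7 of the 9 arrays (limma adjusted p up to 0.123), the second on leaving out any 1 of 8 (limma adjusted p up to 0.143). Same-numbered SNP and cPTIO arrays deviated together, and when these groups were fitted alone with a replicate block the second call was also lost (limma adjusted p = 0.107). GME and GLDH, other enzymes of the route, were not called in any comparison.

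Photorespiration, the source of the peroxide that CAT2 removes, was measured through 3 of 12 listed genes, and 2 were called higher in cPTIO. GLYK, the glycerate kinase that closes the cycle, read 8.61, 8.55 and 8.62 in SNP, 9.20, 8.90 and 9.30 in cPTIO, and 8.51, 8.26 and 8.62 in untreated seedlings, a cPTIO minus untreated difference of 0.67 (limma adjusted p = 0.0248). HPR1, the peroxisomal hydroxypyruvate reductase, was higher by 0.41 in cPTIO (limma adjusted p = 0.0407), a call that ended on leaving out any 1 of 7 of the 9 arrays (limma adjusted p up to 0.131) and with the replicate block over all 9 arrays (limma adjusted p = 0.0698). For GLYK the call ended on leaving out any 1 of 3 arrays (limma adjusted p up to 0.0930). In SNP neither was called, with differences of 0.13 for GLYK (limma adjusted p = 0.646) and 0.28 for HPR1 (limma adjusted p = 0.124). The agents were not shown to differ for either gene. SNP minus cPTIO was -0.54 for GLYK (limma adjusted p = 0.0650) and -0.13 for HPR1 (limma adjusted p = 0.537).

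Of the copper genes, 2 of 13 listed were measured. ARPN, the small blue copper protein plantacyanin, read 5.70, 5.96 and 5.85 in SNP, 5.02, 5.22 and 5.25 in cPTIO, and 5.88, 6.02 and 5.60 in untreated seedlings. It was lower in cPTIO than in untreated seedlings by -0.67 on the log2 scale (limma adjusted p = 0.0245) and higher in SNP than in cPTIO by 0.68 (limma adjusted p = 0.0312). The cPTIO arrays lay below all others for ARPN and above all others for FSD1. The share of all probe sets that set the cPTIO arrays apart in this way was not computed, and a link between ARPN and FSD1 was not tested. Leaving out any 1 of 3 arrays ended the first ARPN call (limma adjusted p up to 0.0946) and any 1 of 6 the second (limma adjusted p up to 0.136). The second was also lost when SNP and cPTIO were fitted alone with a replicate block (limma adjusted p = 0.0583). COX5b-1, a mitochondrial subunit that is also a target of miR398, differed from untreated by 0.00 in SNP and -0.12 in cPTIO (limma adjusted p = 0.998 and 0.662). RBOHE, the 1 NADPH oxidase measured of 6 listed, read from 3.04 to 3.80 on all arrays, below the array medians of 4.47 to 4.60, and was not called.

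**Figure D4:**
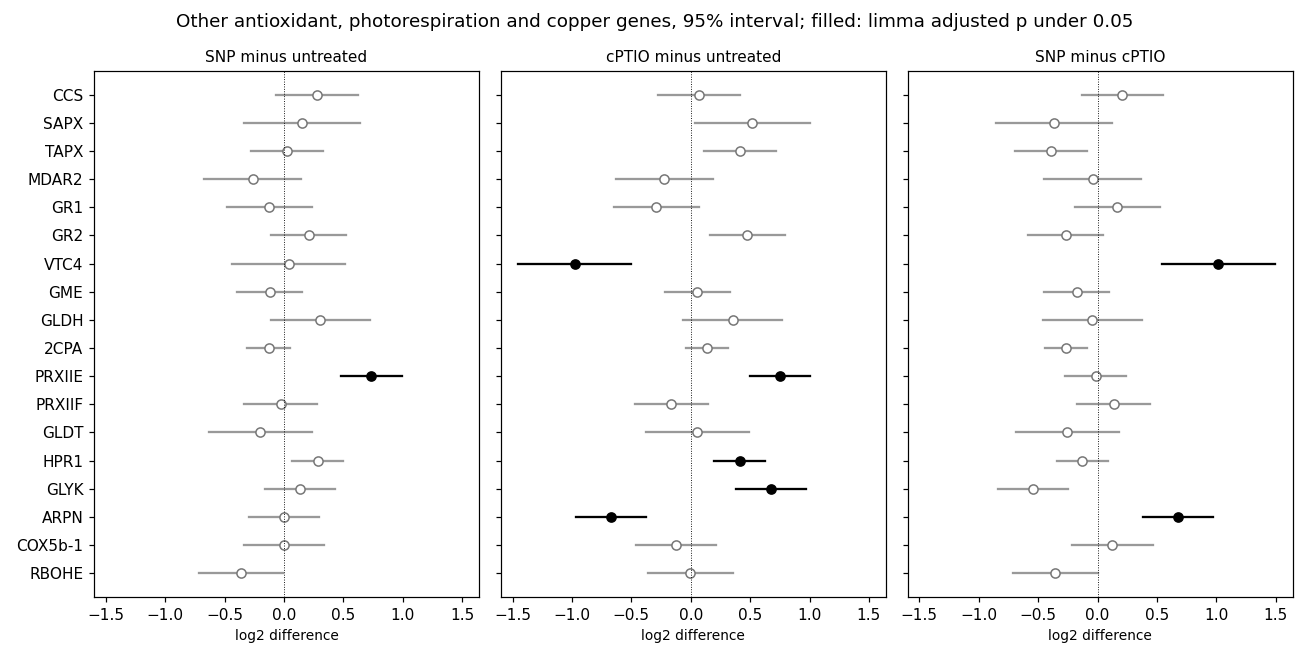
Log2 difference between groups (horizontal axis) for the 18 other antioxidant, photorespiration and copper genes that could be named, in the 3 comparisons; points are limma estimates, bars 95% intervals, filled points have a limma adjusted p under 0.05. PRXIIE is filled in both comparisons with untreated, at 0.73 and 0.75, and VTC4, HPR1, GLYK and ARPN are filled for cPTIO minus untreated.

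Tissue markers could be read for 3 genes. RCA, the Rubisco activase of green tissue, was at 12.79 to 13.01 in SNP, 13.13 to 13.19 in cPTIO and 13.02 to 13.15 in untreated seedlings, and PYK10, a root glucosidase, at 12.10 to 12.33, 11.89 to 12.18 and 11.99 to 12.17. Both were far above the array medians, and neither was called. EXPA7, an expansin of root hairs, read 5.32, 5.39 and 4.66 in SNP, 5.72, 5.52 and 5.60 in cPTIO, and 6.13, 6.02 and 6.15 in untreated seedlings. It was lower in SNP than in untreated seedlings by -0.98 (limma adjusted p = 0.0192), a call that was lost on leaving out any 1 untreated array (limma adjusted p up to 0.0634). The part of root hairs in the member results was not tested.

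The probe sets most like each member were sought among 3517 that carry 1 gene name and average at least 6 on the log2 scale, by Pearson r over the 9 arrays. These r values are descriptions, since all 9 arrays share the differences between groups. PSB27, a photosystem II assembly factor, was most like 259544_at (r = 0.975), followed by AT1G64710 (r = 0.962) and AT3G06760 (r = 0.954). Their group means showed the same division with smaller steps, as for AT1G64710 with 7.17 in SNP, 7.18 in cPTIO and 6.30 in untreated seedlings.

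For 259517_at the closest were AT3G14100 (r = 0.957), AT1G23780 (r = 0.952) and MAC3B, a subunit of a complex associated with the spliceosome (r = 0.951). All 3 were highest in SNP and lowest in untreated seedlings. For FSD1 they were AT1G49470 (r = 0.924), AT3G61870 (r = 0.920) and AT4G26480 (r = 0.919), each highest in cPTIO. AT1G49470 averaged 6.29 in SNP, 7.23 in cPTIO and 6.24 in untreated seedlings.

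**Figure D5:**
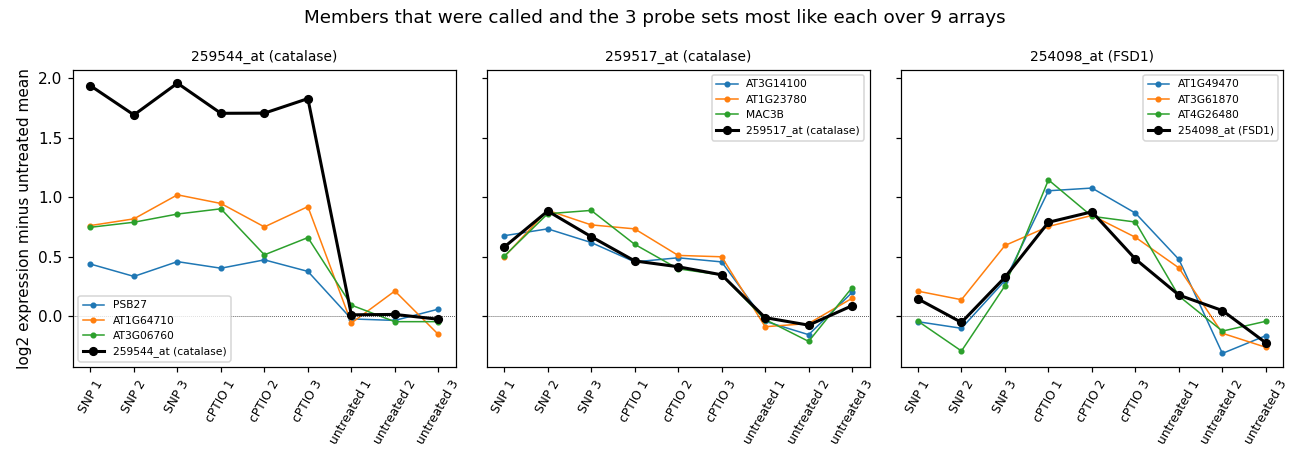
Log2 expression minus the mean of the untreated arrays (vertical axis) on each of the 9 arrays, for 259544_at, 259517_at and FSD1 (thick black) and the 3 probe sets most like each; lines join points only to guide the eye. The black line of 259544_at is near 0 on the untreated arrays and at 1.69 to 1.96 on the 6 treated arrays, above all 3 of its closest matches.

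The members that were not called had closest matches at r from 0.867 to 0.936. CAT2 was most like AT1G60730 (r = 0.918), the osmotin gene OSM34 (r = 0.904) and AT1G29040 (r = 0.855). CSD1 was most like PAHX, a phytanoyl-CoA hydroxylase (r = 0.867), AT3G62650 (r = 0.853) and AT5G65000 (r = 0.845). CSD2 was most like SDRB, a short-chain dehydrogenase-reductase (r = 0.902), AT4G03120 (r = 0.879) and PHOS32 (r = 0.867). APX1 was most like AT5G18900 (r = 0.936), AT2G35900 (r = 0.906) and AT4G33560 (r = 0.891). No member was among the candidates for another, because the annotation lists none of them.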

How the data were processed

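The authors deposited log2 expression, with 1 value for each probe set on each array. Per the submitters' processing notes they used RMA and limma, with no role or version named there. RMA normalises arrays to a common distribution, so a shift shared by most transcripts would be removed. The table held 22810 probe sets, of which 64 AFFX controls were set aside. Array medians ran from 4.47 to 4.60. The precision is limited by the number of arrays, and no detection calls were used.

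The model held only the group and was fitted by limma 3.58.1 (R 4.3.3) on the 9 arrays, without an intensity trend, two-sided, over all probe sets, and was checked on simulated data. Figures used Python 3.11.15 and matplotlib 3.10.9. Annotation gave 1 gene to 13513 probe sets, several to 503 and none listed for 8730. Symbols of 13436 were updated through RefSeq's TAIR10.1 table. All members were named, list genes were named where called in any comparison (otherwise the 2 largest differences of a list), and 3 most alike probe sets were named per member. 2CPA, PRXIIF, GME, GLDH, COX5b-1 and the control transcripts were added after their values were seen. Of the lists, none of the 8 glutathione peroxidases and 5 seed markers could be named. Members and lists were chosen with earlier results of these data known. A planned search of promoters for motifs was not run.

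Replicate numbers are shared by the groups. Deviations from the group means correlated at 0.257 to 0.417 between same-numbered SNP and cPTIO arrays. These were therefore taken as paired, from the data and not the labels, but only in the fits with a replicate block. The main results, also for SNP against cPTIO, come from the fit without a block. The same correlations ran from -0.0174 to 0.127 between SNP and untreated and from -0.00711 to 0.0621 between cPTIO and untreated, which were taken as unpaired.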

Additional observations from a re-analysis of the deposited data

Results flagged for a closer look

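Signals outside the tested probe sets that stood above the untreated samples on all 6 treated arrays were found for 2 of 12 control transcripts. BioC, a bacterial spike-in, was higher by 2.12 on the log2 scale. Ubiquitin, a plant transcript measured by control probe sets, was higher by 0.34.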

How the results depend on the processing

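Under the 18 other settings, all 90 values of the 5 member calls kept their direction and 66 kept the call. For 259544_at the call was kept in 18 settings in SNP and 17 in cPTIO. For 259517_at it was kept in 17 in SNP and 4 in cPTIO, and for FSD1 in cPTIO in 10. The call of 259544_at in cPTIO was lost only in the 2-group fit with a replicate block (limma adjusted p = 0.0858), where no probe set was called by limma in cPTIO against untreated (0 calls, with 4510 at an unadjusted p under 0.05) and so 0 members. The block over all 9 arrays ended the cPTIO calls of 259517_at (limma adjusted p = 0.0726) and HPR1 (limma adjusted p = 0.0698), and no other call of a named gene. In the paired comparison of SNP with cPTIO, the replicate block with 2 groups changed no member's call, gave 282 calls in all, and ended those of VTC4 (limma adjusted p = 0.107) and ARPN (limma adjusted p = 0.0583). Members called in cPTIO became 1 with only the 2 groups or the poly-A covariate, and ran from 1 to 3 with 1 array left out. With the covariate, 1 member was called in SNP and 1 by the F-test. Against cPTIO, 1 member (FSD1) was called in SNP with array weights or without both arrays numbered 3, and 0 to 1 with 1 array left out. By the F-test it was 2 to 3.

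The number of probe sets called against untreated, 1409 in SNP and 1498 in cPTIO, became 2440 and 280 with only 2 groups, 3560 and 2260 under array weighting, 2256 and 2330 on leaving out both arrays numbered 3, and 260 and 26 with the covariate. Leaving out 1 array gave 500 to 2542 and 122 to 2114. For SNP against cPTIO, 742 became 267, 1652 and 1392 in the first 3 of these, and 161 to 1313 with 1 array left out. For the F-test, 2227 became 4389 with weights, 3602 without the arrays numbered 3, 802 with the covariate, and 744 to 3545 with 1 array left out.

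Of 288 values of comparisons not called, 9 changed sign. With the covariate, CSD1 became -0.24 and CSD2 -0.022 in SNP, and CSD2 -0.077 in cPTIO. CSD2 became -0.044 for SNP minus cPTIO without both arrays numbered 3. With 1 array left out, APX1 ran from -0.27 to 0.0025 in SNP (the highest without untreated replicate 3) and from -0.077 to 0.22 in cPTIO (the lowest without untreated replicate 1, and -0.014 without cPTIO replicate 1). CSD2 ran from -0.059 to 0.34 in cPTIO (the lowest without cPTIO replicate 1) and from -0.081 to 0.32 for SNP minus cPTIO (the lowest without cPTIO replicate 2). The poly-A covariate and the omission of both arrays numbered 3 were chosen after seeing the data.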

Other observations

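Exact repeats of a value between arrays were common in the deposited table: 9128 of 22746 probe sets (40.1%) had the same value on at least 2 arrays. Among the members this touched CAT2, which stood at 12.16 on SNP replicate 1 and cPTIO replicate 2. Among the list genes it touched PRXIIF, at 9.32 on 4 of the 9 arrays, and TAPX. Closest matches of members were also touched. AT1G60730, the closest to CAT2, read 7.05 on every untreated array, and SDRB, the closest to CSD2, read 8.36 on 4 of the 9 arrays. AT3G14100, AT1G23780 and AT1G29040 had repeats as well. The effect of repeats on the r values was not tested.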
